A study of Mus musculus with 24 samples.

Results

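The expression of 10 genes of the FAS and BCL2 apoptosis pathways was followed in conventional CD4+ T cells (Tconv) of mice with different mitochondrial haplotypes, at rest and after activation. They are Fasl and Fas, a death ligand and its receptor, Bcl2, Bcl2l1 and Mcl1, which encode survival proteins, Bcl2l11, Pmaip1 and Bbc3, which encode BH3-only proteins, and Bax and Bak1, which encode the pore-forming effectors. The 10 genes were chosen by symbol, out of 55414 genes in the count table, when earlier results of these data across all 4 groups were known. Their own levels and differences are therefore given as a description without p-values, and no cut-off on a value was used to pick them. All 10 were among the 10566 genes with enough counts to be fitted.

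Mice of both haplotypes carried the C57BL/6J nuclear genome, with the mtDNA of C57BL/6J (mtDNA B6, labelled WT) or of the NZB strain (mtDNA NZB). The cells were splenic CD4+ CD25- cells, marked TE in the labels and purified with magnetic beads. They were either left at rest or cultured for several days with beads that bind CD3, a part of the T cell receptor, and CD28, which costimulates it, with the cytokine IL-2 added. The paper does not state whether resting cells were cultured for the same time. Differences with activation below therefore hold stimulation, IL-2 and time in culture together, which cannot be told apart. The data comprised 24 libraries, with 6 for each haplotype and state, prepared by MARS-seq adapted to bulk RNA, a method that reads the 3′ end of polyadenylated RNA and counts each tagged molecule (unique molecular identifier, UMI) once. The study describes most of its animals as young adult males, and the labels give neither age nor sex of the mouse behind a library. The labels also do not say whether replicates came from separate mice, so errors and p-values measure the spread between libraries, which may in part be technical.

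Cell death in T cells runs along a pair of routes. FASL on one cell binds FAS on another, and FAS then recruits an adapter and caspase-8, a route known for removing T cells that are stimulated repeatedly. In the mitochondrial route BAX and BAK open the outer mitochondrial membrane, the survival proteins BCL2, BCL-XL and MCL1 hold them in check, and the BH3-only proteins BIM, NOXA and PUMA block the survival proteins or engage BAX and BAK directly.

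Depth was 2157475 to 6449395 UMI counts in 22 libraries, 641467 counts in activated mtDNA NZB replicate 1 and 51409 counts in resting mtDNA NZB replicate 2. Values are CPM, UMI counts scaled to a common library size. In the thinnest library 1 count is worth 16.9 CPM, so that its values for single genes rest on a handful of counts. This library sets the ends of several resting mtDNA NZB ranges of single genes and marker sums below. Since each molecule is counted once at its 3′ end, CPM can be compared between genes without correcting for transcript length. The T cell identity markers summed to 4083 to 7667 CPM over all 24 libraries. Il2ra, the interleukin-2 receptor chain induced by T cell activation, rose with activation from 3.00 ± 0.908 to 79.8 ± 32.3 CPM in mtDNA B6 cells and from 2.79 ± 1.96 to 111 ± 58.4 CPM in mtDNA NZB cells (SD, n = 6 each). Its log2 difference was 4.68 (SE 0.38) and 5.00 (SE 0.41), with adjusted p-values of 3.65e-10 and 4.84e-10 in edgeR's quasi-likelihood test. Markers of other blood cells moved with activation. The monocyte and macrophage markers summed to 783 to 2535 CPM in resting and 17.4 to 75.2 CPM in activated mtDNA B6 libraries, the granulocyte markers to 385 to 4224 and 5.20 to 49.4 CPM, and the erythroid markers to 191 to 6607 and 16.2 to 161 CPM. In mtDNA NZB libraries the same 3 sums were 423 to 2696, 239 to 12050 and 83.7 to 3459 CPM at rest, and 8.05 to 108, 4.34 to 96.3 and 23.6 to 50.3 CPM after activation. These 3 lists hold 5, 6 and 6 genes, none of them at 0 in all libraries. The CD8 T cell and NK cell markers went the other way in mtDNA B6 cells, from 52.3 to 111 CPM at rest to 161 to 405 CPM after activation and from 33.2 to 50.1 to 59.5 to 115 CPM, with no overlap. With mtDNA NZB they overlapped, at 16.9 to 142 and 82.0 to 534 CPM for CD8 and 37.3 to 84.7 and 28.8 to 77.7 CPM for NK markers. The resting ends of 16.9 and 84.7 CPM, and that of 423 CPM for monocyte and macrophage markers, come from the thinnest library. The B cell markers also overlapped, at 228 to 1086 and 467 to 823 CPM in mtDNA B6 and 226 to 1258 and 84.8 to 1074 CPM in mtDNA NZB libraries. The part of these lists in the differences with activation below was not tested. In bulk RNA, fewer cells of a type and less RNA per cell cannot be told apart.

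Of the 10 genes, 5 were higher and 2 lower after activation in mtDNA B6 cells at an adjusted p of at most 0.05 in the fit over all genes, where 22.4% of the 10566 genes were higher and 24.5% lower. For mtDNA NZB cells the numbers were 4 higher and 3 lower, beside 25.2% and 28.4% of all genes. At rest 2 of the 10 differed between haplotypes, beside 2.76% of all genes. After activation 0 of the 10 differed between haplotypes, where 0% of all genes did so, and for 0 of the 10 did the activation response differ between haplotypes, again beside 0%. At an unadjusted p under 0.05 the last 2 comparisons had 327 and 1512 of all genes. Because the genes were selected on results of the same libraries, nothing is read from these counts. How many of all genes had resting and activated libraries without overlap was not counted, so its absence in single genes below is a description. The counts with activation were the same with any 1 library left out, with the exception that Mcl1 also passed in mtDNA NZB cells without the thinnest library. The count at rest was less stable. Fasl and Bcl2l11, the 2 genes that passed there, both missed the cut-off when any of resting mtDNA B6 replicates 1, 3, 4 and 5 or resting mtDNA NZB replicate 5 was left out. Fasl also missed it when resting mtDNA NZB replicate 4 was left out. Bcl2l11 also missed it when resting replicate 6 of either haplotype or any of activated mtDNA B6 replicates 2, 3, 4 and 5 was left out. Both calls at rest were also lost when the fit used a second table of larger counts (read here as counts before molecules were collapsed), only the 2 groups compared, a term for sets of libraries alike in reads per UMI, or a block by the replicate number in the titles, and without resting mtDNA NZB replicates 5 and 6, and that of Fasl without the filter on low counts. The number of all genes that passed at rest, 292, ran from 0 (without resting mtDNA B6 replicate 4) to 587 (without resting mtDNA NZB replicate 3) in these fits. The median log2 difference of the 10 genes was 0.55 with activation in mtDNA B6 cells, against -0.03 over all genes, and -0.07 against -0.06 in mtDNA NZB cells.

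**Figure D1:**
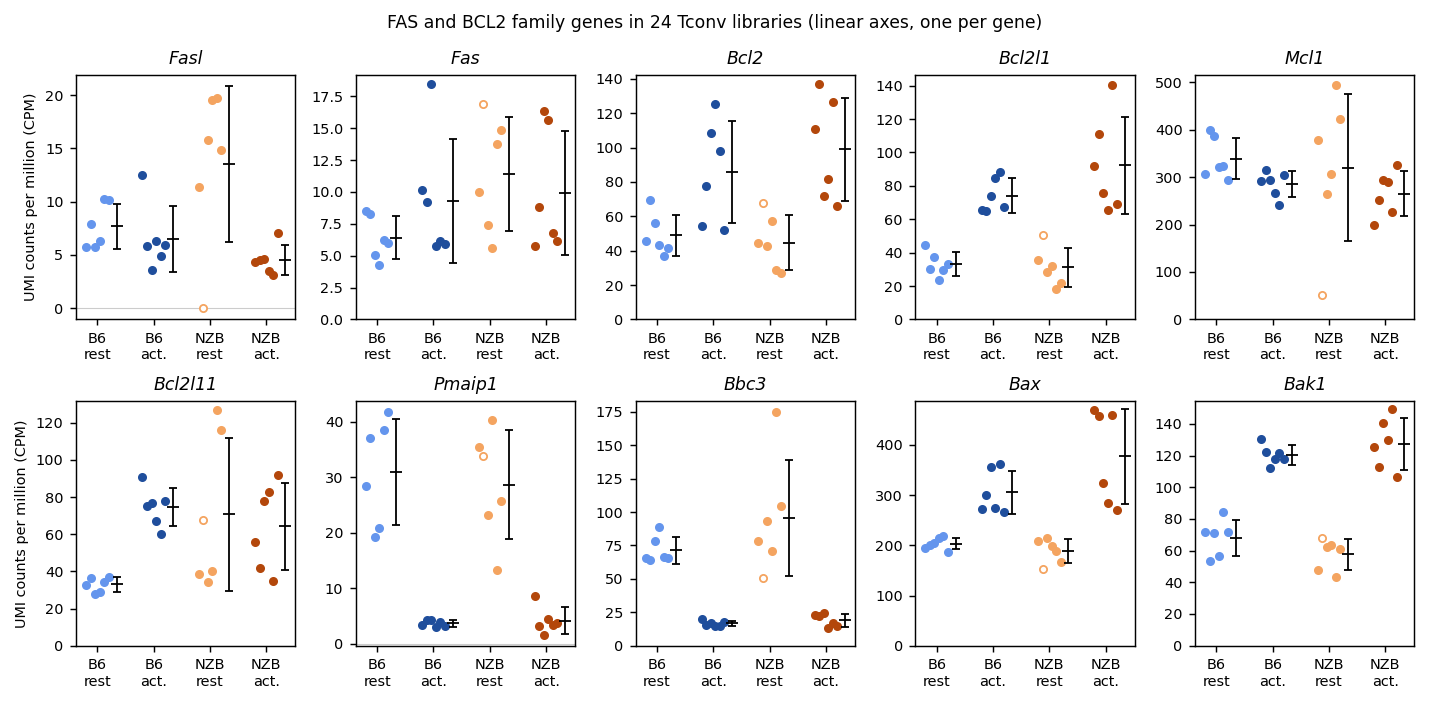
Levels of the 10 genes in every library (y axes, CPM, linear and separate for each gene) in resting (rest) and activated (act.) mtDNA B6 and mtDNA NZB cells (x axis). Each point is a library, the open point is the thinnest library (51409 counts), and the bar beside each group gives mean and SD. Bcl2l1, Bax and Bak1 lie higher and Pmaip1 and Bbc3 lower in every activated library of both haplotypes, and 2 resting mtDNA NZB libraries hold the highest Bcl2l11 levels of the whole set, 127 and 116 CPM.

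The death ligand gene Fasl was higher at rest in mtDNA NZB than in mtDNA B6 cells, and lower after activation in mtDNA NZB cells. Resting mtDNA NZB replicates 1 to 6 held 11.3, 0, 15.8, 19.6, 19.7 and 14.9 CPM, and resting mtDNA B6 replicates 5.74, 7.94, 5.74, 6.26, 10.3 and 10.2 CPM. The value of 0 comes from the thinnest library, where a count of 0 allows up to 50.8 CPM (3 counts), so that this library cannot place Fasl above or below the others. The other 5 resting mtDNA NZB libraries all lay above the 6 resting mtDNA B6 libraries. In CPM the means were 16.3 ± 3.51 (SD, n = 5, without the thinnest library) and 7.69 ± 2.12 (n = 6), and the fit over all 24 libraries gave a log2 difference of 1.04 (SE 0.27). After activation mtDNA NZB libraries held 3.10 to 7.04 CPM with a median of 4.44, below each of the 5 deeper resting mtDNA NZB libraries. The activation difference was a log2 value of -1.76 (SE 0.29) in mtDNA NZB cells and -0.23 (SE 0.27) in mtDNA B6 cells, whose activated libraries ran from 3.63 to 12.5 CPM (median 5.88) and overlapped the resting ones. The difference between these responses was -1.52 (SE 0.39), and it did not pass the cut-off over all genes. Fasl counts are small, 165, 143, 231 and 97 in all over the 6 libraries of resting and activated mtDNA B6 and resting and activated mtDNA NZB cells.

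FASL is also made by CD8+ T cells and NK cells. The sum of Cd8a and Cd8b1 at rest was 52.3 to 111 CPM in mtDNA B6 and 16.9 to 142 CPM in mtDNA NZB libraries, and the sum of 5 NK cell markers, of which 1 was at 0 in all libraries, was 33.2 to 50.1 and 37.3 to 84.7 CPM. The ends of 16.9 and 84.7 CPM come from the thinnest library. Resting mtDNA NZB replicates 4 and 5, which had the highest Fasl levels, held 65.2 and 38.5 CPM of the CD8 markers and 56.0 and 39.0 CPM of the NK markers. After activation, where Fasl was lower in mtDNA NZB cells, the ranges of both lists overlapped those at rest in this haplotype. The part of CD8+ T cells and NK cells in the Fasl levels, at rest or with activation, was not tested. Libraries were also cut at the widest gaps in reads per UMI into 3 sets (1.88 to 1.96, 2.11 to 2.24 and 2.68 to 2.80). Activated mtDNA B6 libraries numbered 5, 1 and 0 in them and resting ones 0, 4 and 2. Activation and set can thus hardly be told apart in mtDNA B6 cells, for any gene. Activated mtDNA NZB libraries numbered 2, 2 and 2 and resting ones 1, 1 and 4. With the set as a term, the same members passed with activation as in the main fit. Within the second set Fasl at rest was higher by 0.78 on the log2 scale in the 1 mtDNA NZB library than in the 4 mtDNA B6 libraries. Within the third set it was higher by 0.77 in 3 mtDNA NZB than in 2 mtDNA B6 libraries, without the thinnest library, and -0.44 with it. With the set as a term in the fit the difference was 0.81 (SE 0.26), which did not pass.

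Fasl lies on chr1:161608258-161616075 of GRCm39, on the minus strand. The stretch of 250 bases before its transcript start, chr1:161616076-161616325, is shown because the deeper libraries of the 2 haplotypes did not overlap in Fasl at rest. Capitals mark the only match, on both strands, to any of 6 motifs that were searched: AP-1 (TGANTCA), NFAT (TGGAAA), EGR (GCGNGGGCG), FOXO (TGTTTAC) and, by name, the NF-kB site and the half-site of p53. The match is to the p53 half-site, which 6.7% of the 21757 promoters of this length of protein-coding genes hold.
Fasl: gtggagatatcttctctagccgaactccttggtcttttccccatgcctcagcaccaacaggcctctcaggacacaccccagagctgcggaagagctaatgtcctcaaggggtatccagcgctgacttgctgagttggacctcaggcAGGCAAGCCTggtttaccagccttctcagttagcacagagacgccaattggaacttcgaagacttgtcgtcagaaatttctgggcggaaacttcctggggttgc
A match of letters is a description, and the absence of the other motifs says only that these letters are not in this window. Motifs named for factors of T cell activation were common among promoters in general, with the NFAT letters in 19.4%, the AP-1 letters in 6.2% and the NF-kB site in 7.6%.

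The receptor gene Fas (chr19:34268001-34305173, plus strand) was near the level of its ligand and varied widely within groups. It ran from 4.31 to 8.48 CPM (median 6.11) in resting and from 5.72 to 18.5 CPM (median 7.66) in activated mtDNA B6 cells, and from 5.60 to 16.9 CPM (median 11.9) and 5.75 to 16.4 CPM (median 7.81) in mtDNA NZB cells. The groups overlapped in every comparison. With activation the log2 difference was 0.51 (SE 0.32) in mtDNA B6 and -0.03 (SE 0.33) in mtDNA NZB cells, and at rest mtDNA NZB cells differed from mtDNA B6 cells by 0.67 (SE 0.34). None of these passed the cut-off. The highest resting value, 16.9 CPM, is a single count in the thinnest library.

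Among the survival genes, Bcl2 and Bcl2l1 were higher after activation in both haplotypes, and Mcl1, the most abundant of the 3 in every group, was not. Bcl2l1 (chr2:152622582-152673655, minus strand), the gene of BCL-XL, ran from 23.5 to 44.4 CPM (median 31.8) in resting and from 65.2 to 88.5 CPM (median 70.5) in activated mtDNA B6 cells. Its range with mtDNA NZB was 18.3 to 50.8 CPM (median 30.2) at rest, with the highest value from 3 counts in the thinnest library, and 65.4 to 141 CPM (median 84.0) after activation. All activated libraries lay above all resting libraries in each haplotype. The log2 difference was 1.16 (SE 0.19) in mtDNA B6 and 1.73 (SE 0.20) in mtDNA NZB cells, and the difference between them, 0.56 (SE 0.27), did not pass.

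Bcl2 (chr1:106465908-106642060, minus strand) was 36.7 to 69.5 CPM (median 44.4) in resting and 52.3 to 125 CPM (median 87.7) in activated mtDNA B6 cells, which overlap. With mtDNA NZB it was 26.9 to 67.8 CPM (median 43.5) at rest, with the highest value from 4 counts in the thinnest library, and 66.1 to 137 CPM (median 96.3) after activation. Without that library the mtDNA NZB groups did not overlap. The log2 differences were 0.82 (SE 0.23) and 1.27 (SE 0.25). Mcl1 (chr3:95566026-95570487, plus strand), whose protein turns over quickly, was 294 to 400 CPM (median 323) in resting and 241 to 315 CPM (median 293) in activated mtDNA B6 cells. With mtDNA NZB it was 264 to 494 CPM at rest in the 5 deeper libraries, 50.8 CPM from 3 counts in the thinnest, and 198 to 327 CPM (median 271) after activation. Its log2 differences were -0.25 (SE 0.19) and -0.37 (SE 0.20) and did not pass the cut-off, and resting and activated libraries overlapped in both haplotypes. Without the thinnest library the mtDNA NZB value was -0.45 and passed.

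The 3 survival genes also stood in other proportions after activation. Of the summed UMI counts of Bcl2, Bcl2l1 and Mcl1, Mcl1 took 80.6% ± 2.14 (SD, n = 6) in resting and 64.3% ± 7.22 in activated mtDNA B6 cells, and 75.0% ± 22.7 and 58.3% ± 10.8 in mtDNA NZB cells. The wide spread at rest in mtDNA NZB cells has 2 ends, with 30.0% in the thinnest library, on 10 counts of the 3 genes, and 91.3% in replicate 5. Bcl2l1 took 7.94% ± 1.96 and 16.7% ± 2.29 in mtDNA B6 cells, whose resting libraries (6.03 to 11.2%) lay below the activated ones (14.2 to 20.7%). With mtDNA NZB its shares were 10.4% ± 9.83 and 20.1% ± 5.38, where the thinnest library held 30.0% and the other resting libraries 3.38 to 8.52%. These shares restate the levels above within each library and so do not depend on scaling between libraries.

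**Figure D2:**
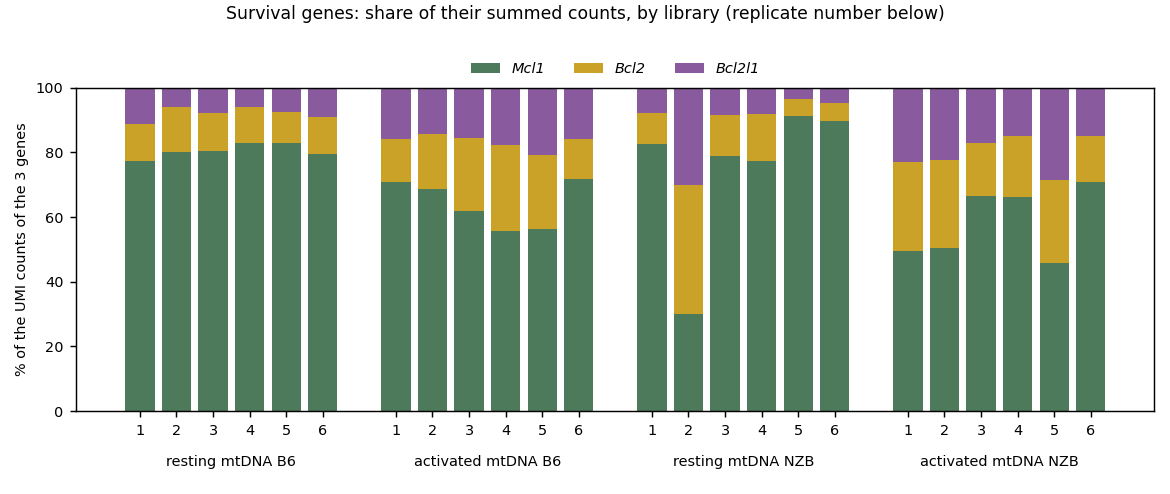
Share of each survival gene (Mcl1, Bcl2, Bcl2l1) in the summed UMI counts of the 3 genes (y axis, %), with a bar for each library (x axis, replicate number within its group). The Mcl1 share is 77.3 to 83.0% in resting and 55.9 to 71.8% in activated mtDNA B6 libraries, and resting mtDNA NZB replicate 2 (30.0%) is the thinnest library.

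Bcl2l11, the gene of the BH3-only protein BIM, which is needed for the death of T cells after an immune response, had the largest coefficient of variation within a group among the 10 genes, 58.5% in resting mtDNA NZB cells. In resting mtDNA B6 cells it was even, at 28.0 to 37.2 CPM (median 33.6), and in activated mtDNA B6 cells all 6 libraries were higher, at 60.4 to 90.6 CPM (median 76.1), a log2 difference of 1.18 (SE 0.28). Resting mtDNA NZB replicates 1, 3 and 4 held 38.7, 34.2 and 40.0 CPM, near the mtDNA B6 level, replicates 5 and 6 held 127 and 116 CPM, and the thinnest library held 67.8 CPM from 4 counts. Activated mtDNA NZB replicates 1 to 6 held 56.1, 42.1, 77.9, 82.8, 35.0 and 91.9 CPM. Resting and activated mtDNA NZB libraries thus overlapped, and the fit gave a log2 difference with activation of -0.12 (SE 0.29). At rest mtDNA NZB cells differed from mtDNA B6 cells by 1.09 (SE 0.29), and the responses differed by -1.30 (SE 0.40), which did not pass. Within the 3 sets of reads per UMI the activation difference in mtDNA NZB cells was 0.72, 0.60 and -0.27, and the difference at rest was 0.30 in the second and 1.14 in the third set, which holds both replicates 5 and 6. With the thinnest library left out, the values of the third set were -0.34 and 1.22.

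The values of Bcl2l11 turned on resting mtDNA NZB replicates 5 and 6. Without both, a choice made after the data were seen, the difference at rest was 0.20 (SE 0.23) and no longer passed. The activation difference in mtDNA NZB cells was then 0.81 (SE 0.23) and passed, and the difference between responses was -0.41 (SE 0.29). Without replicate 5 alone the difference at rest was 0.79 and did not pass. The same 2 libraries had the highest resting levels of Bbc3 (175 and 104 CPM) and the lowest of Bcl2 (28.9 and 26.9 CPM) and Bcl2l1 (18.3 and 21.7 CPM) among resting mtDNA NZB libraries. Mcl1, the other survival gene, was highest in them (494 and 423 CPM), and Pmaip1 was lowest in replicate 5 (13.3 CPM) but not in replicate 6 (25.7 CPM), so that neither the survival genes nor the BH3-only genes shifted one way there. Their log2 ratio of Bcl2 to Bcl2l11 was -2.11 and -2.09, where the other 22 libraries ran from -0.73 to 1.84. Their 7 activation markers summed to 410 and 470 CPM, against 237 to 384 CPM in the other resting mtDNA NZB libraries, 244 to 344 CPM in resting mtDNA B6 libraries and 728 to 1065 CPM in activated libraries. The B cell, NK cell and CD8 markers also set these libraries apart. Replicates 5 and 6 had the lowest B cell sums of resting mtDNA NZB libraries (239 and 226 CPM, others 557 to 1258 CPM), the lowest NK cell sums (39.0 and 37.3 CPM, others 44.1 to 84.7 CPM) and, of the 5 deeper libraries, the lowest CD8 sums (38.5 and 38.1 CPM, others 65.2 to 142 CPM). Granulocyte markers were lowest in replicate 5 (239 CPM) and highest in replicate 6 (12050 CPM), and replicate 6 had the lowest T cell identity sum of all 24 libraries (4083 CPM). Monocyte and macrophage sums were 549.5 and 2696 CPM in replicates 5 and 6 (others 423 to 1253 CPM). Erythroid sums were 220 and 3459 CPM (others 83.7 to 293 CPM), so that replicate 5 lay within the others in both. The part of these cells in the Bcl2l11 level was not tested.

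**Figure D3:**
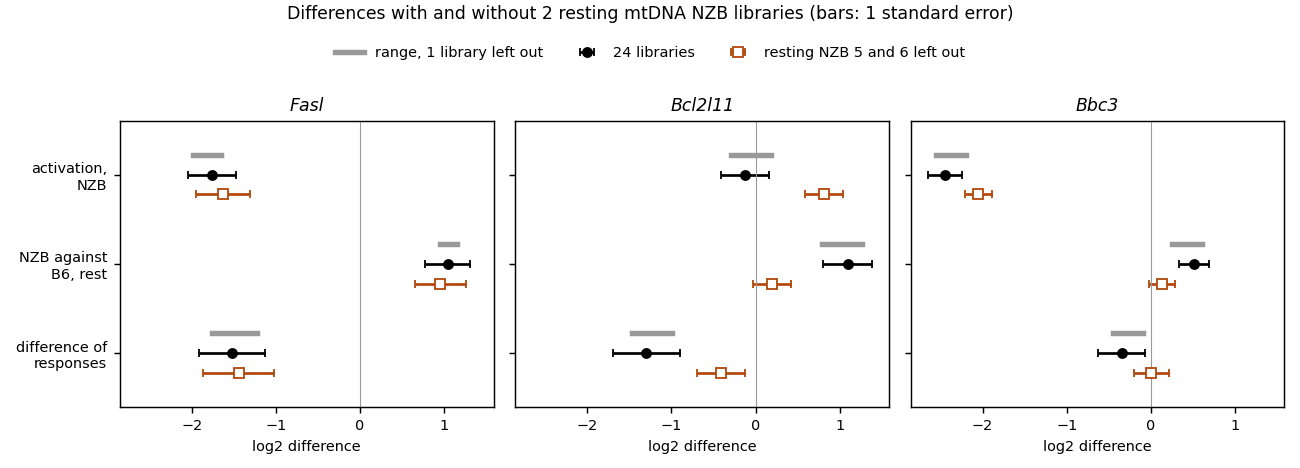
Log2 differences (x axis) of Fasl, Bcl2l11 and Bbc3 for 3 comparisons (y axis), over 24 libraries (filled circles) and without resting mtDNA NZB replicates 5 and 6 (open squares), both with bars of 1 SE. Grey bars span the values with any 1 library left out. For Bcl2l11 at rest the value moves from 1.09 to 0.20 without these libraries, and for Fasl from 1.04 to 0.95.

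Bcl2l11 lies on chr2:127967958-128004476 of GRCm39, on the plus strand. The 250 bases before its transcript start, chr2:127967708-127967957, are shown because the level of this gene separated both the states of mtDNA B6 cells and the libraries within resting mtDNA NZB cells. Capitals mark a FOXO match on the opposite strand (GTAAACA here), which 2.7% of all promoters hold, and an EGR match on the same strand, which 4.5% hold.
Bcl2l11: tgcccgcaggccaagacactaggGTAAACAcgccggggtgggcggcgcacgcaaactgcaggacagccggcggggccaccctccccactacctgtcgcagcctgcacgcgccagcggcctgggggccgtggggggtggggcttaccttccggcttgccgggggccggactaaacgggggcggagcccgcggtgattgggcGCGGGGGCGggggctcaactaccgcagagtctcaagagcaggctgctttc
Of the other 9 genes, Bak1 also held a FOXO match and Bcl2l1 an EGR match in its window. The window of Bcl2l11 overlaps an exon of Gm75592, an annotated neighbour.

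The other BH3-only genes, Pmaip1 and Bbc3, were lower after activation in every library of both haplotypes. Pmaip1 (chr18:66591604-66598636, plus strand), the gene of NOXA, which binds MCL1, ran from 19.2 to 41.8 CPM (median 32.8) in resting and from 2.97 to 4.30 CPM (median 3.57) in activated mtDNA B6 cells. With mtDNA NZB it ran from 13.3 to 40.3 CPM (median 29.8) and from 1.64 to 8.63 CPM (median 3.54). The log2 differences, -3.08 (SE 0.27) and -2.95 (SE 0.30), were the largest of the 10 genes in each haplotype. The highest activated value, 8.63 CPM, rests on 6 counts.

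Bbc3 (chr7:16042318-16052130, plus strand), the gene of PUMA, was 64.2 to 88.9 CPM (median 65.9) in resting and 14.4 to 20.1 CPM (median 16.4) in activated mtDNA B6 cells. In resting mtDNA NZB cells it was 71.1 to 175 CPM in the 5 deeper libraries and 50.8 CPM from 3 counts in the thinnest, and 13.5 to 24.5 CPM (median 19.5) after activation. The log2 differences with activation were -2.10 (SE 0.19) and -2.45 (SE 0.20). At rest mtDNA NZB cells were higher by 0.51 (SE 0.18) on the log2 scale, which did not pass and was 0.13 (SE 0.15) without replicates 5 and 6. Both Pmaip1 and Bbc3 thus moved opposite to Bcl2l11 in mtDNA B6 cells, although all 3 encode BH3-only proteins.

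Both effector genes were higher after activation, with no overlap in either haplotype. Bak1 (chr17:27238784-27247983, minus strand) was 53.6 to 84.6 CPM (median 71.2) in resting and 112 to 131 CPM (median 120) in activated mtDNA B6 cells. With mtDNA NZB it was 43.1 to 67.8 CPM (median 61.7) at rest, with the highest value from 4 counts in the thinnest library, and 106 to 149 CPM (median 127) after activation. Its log2 differences were 0.82 (SE 0.12) and 1.18 (SE 0.13). Bax (chr7:45111015-45116325, minus strand) was 188 to 218 CPM (median 203) in resting and 267 to 363 CPM (median 287) in activated mtDNA B6 cells, with a log2 difference of 0.59 (SE 0.13). With mtDNA NZB it was 152 to 214 CPM (median 193, the lowest value from 9 counts in the thinnest library) and 271 to 470 CPM (median 390), with a difference of 0.97 (SE 0.14).

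Activated mtDNA NZB libraries were spread widely in Bax. Replicates 1, 2 and 5 held 470, 457 and 459 CPM, above every activated mtDNA B6 library, and replicates 3, 4 and 6 held 324, 285 and 271 CPM, within the mtDNA B6 range. The same replicates 1, 2 and 5 had the lowest Bcl2l11 levels of their group (56.1, 42.1 and 35.0 CPM) and the highest Bcl2l1 levels (92.0, 111 and 141 CPM). Bcl2 was also higher in replicates 1, 2 and 5 than in 3, 4 and 6 (110.7 to 137 against 66.11 to 81.91 CPM). Mcl1 was lower in replicates 1, 2 and 5 (198.4 to 252.8 against 289.7 to 326.7 CPM). Fasl, Fas, Pmaip1, Bbc3 and Bak1 overlapped. The T cell activation sums divided the group in the same way, at 1065, 1034 and 916.9 against 766.6, 812.6 and 736.3 CPM. So did the B cell, CD8 and NK cell markers. Those of monocytes and macrophages, granulocytes and erythroid cells overlapped between replicates 1, 2 and 5 and the rest. In replicates 1, 2 and 5 the B cell sums were 102, 84.8 and 299 CPM, the CD8 sums 82.0, 85.5 and 124 CPM and the NK cell sums 28.8, 36.2 and 38.1 CPM. In replicates 3, 4 and 6 these were 674, 868 and 1074 CPM, 356, 205 and 534 CPM, and 53.7, 58.8 and 77.7 CPM. Activated mtDNA B6 replicates 3, 4 and 5 also stood apart from 1, 2 and 6. Their CD8 sums were 161 to 185 against 369 to 405 CPM, and their activation sums 858 to 900 against 728 to 740 CPM. Bcl2 was 98.0 to 125 against 52.3 to 77.4 CPM, and Bcl2l1 73.7 to 88.5 against 65.2 to 67.35 CPM. Bax and Bcl2l11 overlapped between them. The part of other cells or of the degree of activation in the levels of these genes was not tested in either haplotype. The haplotypes overlapped after activation, and the log2 difference of Bax was 0.30 (SE 0.13), which did not pass. In its last 1000 transcript bases, where the authors counted reads, 976 exonic bases of Bax are annotated, and these overlap exons of Gm45808 on the same strand and Gm73431 on the opposite strand. Reads of these genes could therefore be divided or counted together. In this respect the level of Bax is less certain than those of the other 9, which overlap no other gene there.

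The 250 bases before the transcript start of Bax, chr7:45116326-45116575, are shown because BAX, like NOXA and PUMA, is known as a product of a p53 target gene, and Bax moved opposite to Pmaip1 and Bbc3. Capitals mark the p53 half-site, the only match among the 6 motifs.
Bax: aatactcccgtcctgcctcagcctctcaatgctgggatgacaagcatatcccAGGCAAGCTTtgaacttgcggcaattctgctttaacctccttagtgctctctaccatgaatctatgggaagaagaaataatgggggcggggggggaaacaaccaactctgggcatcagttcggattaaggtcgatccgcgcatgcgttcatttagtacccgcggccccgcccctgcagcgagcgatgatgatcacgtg
Windows of 4 of the 10 genes held such a half-site, Fasl, Pmaip1, Bbc3 and Bax, beside 6.7% of all promoters. With activation in mtDNA B6 cells Pmaip1 and Bbc3 were lower, Bax was higher and Fasl did not pass the cut-off, so these 4 genes did not move together.

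**Figure D4:**
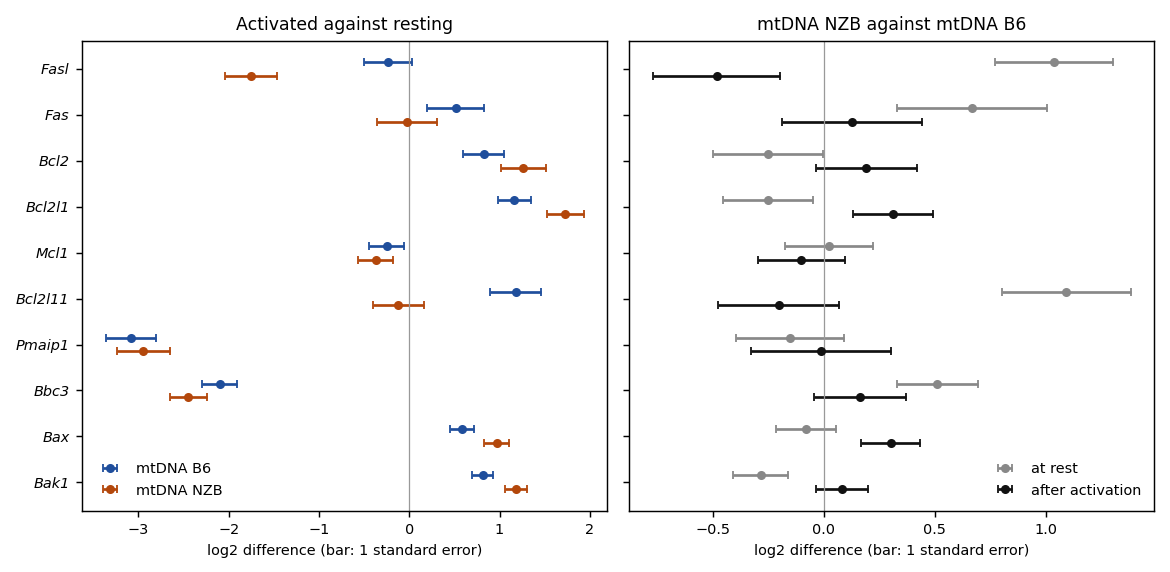
Log2 differences of the 10 genes (x axes, with bars of 1 SE) for activated against resting cells of each haplotype (left) and for mtDNA NZB against mtDNA B6 cells in each state (right). On the left Fasl and Bcl2l11 are the genes whose values lie farthest apart between haplotypes (-0.23 and -1.76, 1.18 and -0.12), and on the right the values after activation run from -0.48 to 0.31.

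In order of level, Mcl1 came first and Bax second in resting mtDNA B6 cells, each above the next gene in all 6 libraries. Bbc3 and Bak1 followed, with Bbc3 above Bak1 in 3 of 6 libraries, so that this pair had no order. Bcl2l1 and Bcl2l11, at means of 33.0 and 33.0 CPM, also had none, and Fasl and Fas came last in resting cells of both haplotypes. After activation Bax and Mcl1 were near each other, with Bax above Mcl1 in 3 of 6 mtDNA B6 libraries and in 4 of 6 mtDNA NZB libraries. Pmaip1, above Fasl at rest, came last after activation, at a mean of 3.64 ± 0.577 CPM against 6.51 ± 3.08 CPM for Fasl in mtDNA B6 cells, with Fasl above it in 5 of 6 libraries. In activated mtDNA NZB cells Fasl was above Pmaip1 in 3 of 6 libraries, so that this pair had no order.

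After activation the haplotypes were close for all 10 genes. Every gene's libraries overlapped between haplotypes, and the log2 differences ran from -0.48 (SE 0.29) for Fasl to 0.31 (SE 0.18) for Bcl2l1. The response to activation differed most for Fasl (-1.52, SE 0.39) and Bcl2l11 (-1.30, SE 0.40). For the other 8 genes this difference was between -0.54 (Fas) and 0.56 (Bcl2l1). Comparisons of both haplotypes at rest and after activation share libraries with these responses, so the values are not independent of each other.

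The wider pathway was read from 5 lists that hold 81 other genes, of which 66 were fitted. After activation in mtDNA B6 cells 22 of the 66 were higher and 12 lower, which is 33.3% and 18.2%, beside 22.4% and 24.5% of all genes. For mtDNA NZB cells 21 were higher and 14 lower, or 31.8% and 21.2%, beside 25.2% and 28.4%. The median log2 difference over the 66 genes was 0.26 and 0.06, against -0.03 and -0.06 over all genes. At rest 1 of the 66 differed between haplotypes (1.52%, beside 2.76% of all genes), after activation 0 did, and for 0 of them did the responses differ. At an unadjusted p under 0.05 the last 2 comparisons had 3 and 12 of the 66, beside 327 and 1512 of all 10566 genes, and nothing is read from these counts.

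The list of the apoptosome and caspases, which carry out the steps after the mitochondrial pore, holds 16 genes. After activation 7 were higher and 1 lower in mtDNA B6 cells (43.8% and 6.25%, beside 22.4% and 24.5% of all genes). In mtDNA NZB cells 9 were higher and 0 lower (56.2% and 0%, beside 25.2% and 28.4%). Vdac2, a channel of the outer mitochondrial membrane that binds BAK, rose by 0.75 (SE 0.13, adjusted p = 2.97e-05 in edgeR) and 0.68 (SE 0.13, adjusted p = 0.000115) on the log2 scale.

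Htra2, a mitochondrial protease released through the pore, was the only one of the 66 genes that differed between haplotypes at rest. It was lower in mtDNA NZB cells, at 55.8 ± 17.5 CPM against 101 ± 23.4 CPM (SD, n = 6), with a log2 difference of -0.76 (SE 0.17, adjusted p = 0.0298 in edgeR) and a range of adjusted p from 0.00678 to 0.186 over 34 alternatives. Its libraries overlapped (33.5 to 72.3 CPM and 65.5 to 136 CPM). It fell with activation in mtDNA B6 cells, by 0.69 on the log2 scale (SE 0.16, adjusted p = 0.000887 in edgeR), and had a log2 difference of 0.01 (SE 0.17) in mtDNA NZB cells. The difference between these responses, 0.70 (SE 0.23), did not pass over all genes (adjusted p = 0.218 in edgeR). The call at rest was lost when any of resting mtDNA B6 replicates 1, 3, 4 and 5 or resting mtDNA NZB replicate 5 was left out, with the library set as a term and with only the 2 groups compared.

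Among inhibitors of apoptosis 1 of 7 genes rose and 2 fell in each haplotype, or 14.3% and 28.6%. The shares of all genes were 22.4% and 24.5% in mtDNA B6 and 25.2% and 28.4% in mtDNA NZB cells. Birc5, which encodes survivin and is known as a gene of dividing cells, rose from 46.1 ± 20.8 to 225 ± 41.1 CPM in mtDNA B6 cells (log2 difference 2.28, SE 0.29, adjusted p = 7.86e-07 in edgeR) and from 26.6 ± 17.1 to 252 ± 63.2 CPM in mtDNA NZB cells (3.15, SE 0.33, adjusted p = 2.18e-08). Of the other BCL2 family members 9 of 17 were fitted, and 2 rose and 1 fell in each haplotype (22.2% and 11.1%, beside the same shares of all genes). These were Bad and Bnip3, which rose, and the BH3-only gene Bmf, which fell, and they are named here because the count is small, after their values were seen. Their log2 differences were 0.49 (SE 0.15), 2.99 (SE 0.37) and -1.51 (SE 0.34) in mtDNA B6 cells and 0.68 (SE 0.16), 2.90 (SE 0.41) and -1.80 (SE 0.34) in mtDNA NZB cells.

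Of the death receptors and adapters, 5 of 18 genes were higher and 5 lower after activation in mtDNA B6 cells. These were 27.8% each, beside 22.4% and 24.5% of all genes. In mtDNA NZB cells 3 were higher and 6 lower (16.7% and 33.3%, beside 25.2% and 28.4%). Rbck1, a subunit of the ubiquitin ligase that modifies receptor complexes, rose from 122 ± 1.56 to 144 ± 12.7 CPM in mtDNA B6 cells and from 108 ± 17.0 to 155 ± 18.2 CPM in mtDNA NZB cells. The log2 differences were small, 0.24 (SE 0.09, adjusted p = 0.0414 in edgeR) and 0.47 (SE 0.10, adjusted p = 0.00031), and the first was lost in 14 of 35 alternatives, with adjusted p from 0.0056 to 0.209.

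Of p53 and its targets, 7 of 16 genes were higher and 3 lower after activation in mtDNA B6 cells. These were 43.8% and 18.8%, beside 22.4% and 24.5% of all genes. In mtDNA NZB cells 6 were higher and 5 lower (37.5% and 31.2%, beside 25.2% and 28.4%). Trp53 itself, named as the gene of p53 and outside the rule for named genes, had a log2 difference of 0.01 (SE 0.20) and -0.08 (SE 0.20). Phlda3, whose product restrains AKT signalling, rose from 2.53 ± 0.569 to 13.0 ± 4.00 CPM and from 1.68 ± 1.03 to 21.4 ± 8.40 CPM (log2 differences 2.35, SE 0.29, and 3.40, SE 0.33, adjusted p = 4.43e-07 and 7.78e-09 in edgeR). Zmat3 rose by 1.38 (SE 0.18, adjusted p = 9.29e-07 in edgeR) and 1.47 (SE 0.20, adjusted p = 9.59e-07). Gadd45a, a stress response gene, fell from 135 ± 23.2 to 12.6 ± 0.559 CPM and from 104 ± 18.9 to 13.6 ± 5.65 CPM (log2 differences -3.42, SE 0.18, and -2.98, SE 0.19, adjusted p = 2.19e-13 and 3.38e-12 in edgeR). The p53 targets named here thus moved both ways, as did Bax against Pmaip1 and Bbc3 among the 10 genes.

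**Figure D5:**
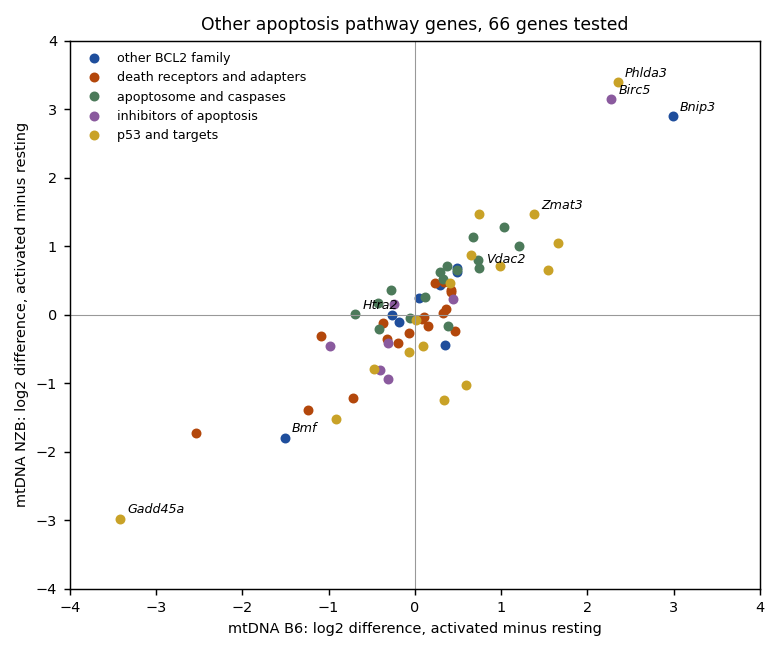
Log2 difference with activation in mtDNA B6 (x axis) and mtDNA NZB cells (y axis) of the 66 other apoptosis pathway genes, coloured by list. Gadd45a (-3.42 and -2.98) lies lowest in both haplotypes, and Phlda3, Birc5 and Bnip3 lie above 2 in both.

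The genes whose level was most like that of a member over libraries were sought among 8177 genes in the 23 libraries above the thinnest. Likeness was the root mean square of the differences in log2 CPM after centring each gene. Fasl was nearest to S1pr1, a sphingosine-1-phosphate receptor of resting T cells (0.349), Snx18 (0.363) and Ythdc1 (0.366), where Fasl itself varied by 0.716 around its mean. Bcl2l11 was nearest to Usp38 (0.298), Ccng2 (0.304) and Patj (0.313), with 0.654 of its own. Bcl2 was nearest to Foxd2os (0.270), Mov10 (0.281) and Cbx6 (0.290), with 0.659 of its own. These libraries share 4 groups and 3 sets of reads per UMI, and the values are a description of likeness alone.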

How the data were processed

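RNA of resting and activated splenic Tconv cells was read in 24 libraries. Per the paper and the submitters' processing notes, reads were trimmed with cutadapt, mapped with STAR to the last 1000 bases of GRCm39 genes, counted with HTSeq, collapsed by UMI and corrected for saturation (tool versions are not given in the sources used here). The authors deposited these UMI counts per gene, not scaled, and a second table of larger counts per gene, read here as counts before collapsing. Of their columns, 1 matched no sample and was not used. Reading 3′ ends leaves reads of overlapping genes undivided, and the use of strand in counting is not stated.

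Groups came from the labels. Counts were scaled by TMM, filtered by filterByExpr and fitted over all 24 libraries and 4 groups with edgeR 4.0.16 (quasi-likelihood F test, R 4.3.3), with Benjamini-Hochberg adjustment over 10566 genes and a cut-off of 0.05 without a fold limit. Each SE is the log2 difference divided by the square root of F. The fit was tested on simulated counts. CPM are counts over the scaled library size. Counts of any 2 libraries of a group were farther apart than sampling noise allows (lowest chi-square over degrees of freedom, 2.77). The smallest library (51409 counts) gives single genes little precision, and limits from a count of 0 (3 counts) cover counting error only. Genes outside the GRCm39 annotation (GENCODE vM39) held 0.0272% of counts. Promoter sequence was read from GRCm39 for canonical transcripts, and pandas 2.3.3 and matplotlib 3.10.9 were used in Python 3.11.15.

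The members and lists were chosen with earlier results of these data known. Named genes beyond the members were Il2ra, up to 2 rises and 2 falls per list among genes past the cut-off in both haplotypes without overlap between states, every listed gene past the cut-off between haplotypes, and for Fasl, Bcl2 and Bcl2l11 the 3 genes most alike in pattern. Bad, Bnip3, Bmf and Trp53 were named outside this rule. A gene that this rule names is not reported here. Marker lists covered T cells, T cell activation, CD8 T cells, NK cells, B cells, monocytes and macrophages, granulocytes and erythroid cells. Alternatives were DESeq2 1.42.0, median-of-ratios scaling, no filter or a stricter filter (10 CPM in 6 libraries), a log2 fold limit of 1, the second table, 2 groups at a time, a set of 21 libraries (resting mtDNA NZB replicate 2 and replicate 6 of both mtDNA NZB states left out), blocks by replicate number, the library set as a term or within sets, and leaving out each library. Leaving out resting mtDNA NZB replicates 5 and 6, and the thinnest library within a set, was chosen after seeing the data.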

Additional observations from a re-analysis of the deposited data

Results flagged for a closer look

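A single library lay far from the other 5 of its group in 4 of the 76 groups of 6 libraries tested, and chance alone marks about 1 group in 20. Fasl in activated mtDNA B6 replicate 1 was 12.5 CPM, where the others ran from 3.63 to 6.36 CPM. Fas in activated mtDNA B6 replicate 3 was 18.5 CPM, where the others ran from 5.72 to 10.2 CPM. Zmat3 in activated mtDNA B6 replicate 4 was 15.9 CPM, below the others at 21.0 to 23.5 CPM. Gadd45a in resting mtDNA NZB replicate 2, the thinnest library, was 67.8 CPM from 4 counts, below the others at 102 to 121 CPM.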

How the results depend on the processing

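Of 1820 values of the 10 genes under alternatives, 1794 lay within 1 SD between libraries of the value given above, 25 lay farther off and 1, of a difference past the cut-off, changed direction, which is Fasl at rest within the third library set at -0.44 (4 mtDNA NZB against 2 mtDNA B6 libraries, 0.77 without the thinnest). The sign also changed in 62 values of differences that had not passed, 8 of them of Bcl2l11 with activation in mtDNA NZB cells (-0.12), up to 0.81 without resting mtDNA NZB replicates 5 and 6. The number of pathway genes past the cut-off with activation, 34 in mtDNA B6 and 35 in mtDNA NZB cells, was 13 and 15 with a log2 fold limit of 1, 21 in mtDNA B6 cells with the library set as a term, and 28 to 35 and 32 to 36 with a library left out. At rest the single gene became 3 with DESeq2, the stricter filter or the 21 libraries, 2 without the filter or without resting mtDNA NZB replicates 5 and 6, 0 with a fold limit, with only the 2 groups compared or with the set as a term, and 0 to 4 with a library left out. After activation and for the difference between responses the pathway count was 0 in each alternative run, and with a library left out it was 0 to 0. At rest Fasl and Bcl2l11 both missed the cut-off with the second table, only the 2 groups compared, the set as a term, the block by title number and without resting mtDNA NZB replicates 5 and 6, and Fasl missed it without the filter. Over the 21 libraries Fasl alone of the 10 genes passed at rest and in the difference between responses (-1.82, SE 0.40), where 113 of all genes passed. The number of all genes past the cut-off at rest was 292, 451 with DESeq2, 43 in the second table, 0 with only the 2 groups compared, 662 over the 21 libraries and 1 with the set as a term. In each case the cause was not tested. Label numbers shared by a resting and an activated library gave 9 pairs, whose deviations from their group means correlated at -0.158 to 0.253. In 2 of 9 the activated library was most like its own number. Such deviations can also carry depth and other cells, so they cannot decide whether equal numbers mark the same mouse. The labels do not say, and the numbers were not taken as pairs. A replicate block by label number gave 28 and 24 pathway genes with activation, and Bcl2l11 in mtDNA NZB cells a log2 difference of 0.59 (SE 0.22), against -0.12 in the main fit. A replicate block by title number gave 31, 33 and, at rest, 1, with 72 of all genes at rest. The thinnest library limits what can be said of all 10 genes, since its counts of them run from 0 (Fasl) to 9 (Bax).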

Other observations

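Of the 9 pairs of a resting and an activated library with the same label number, Fasl was lower in the activated library in all 4 mtDNA NZB pairs, by log2 changes of -1.01 to -2.30, and in 4 of 5 mtDNA B6 pairs (-0.41 to -0.99), the other being 1.04. Bcl2l11 was higher in the activated library in all 5 mtDNA B6 pairs (0.81 to 1.44) and in 3 of 4 mtDNA NZB pairs (0.53 to 1.17), and the pair with resting mtDNA NZB replicate 6 was -0.34. In the reads per UMI, a measure of how often a molecule was sequenced, the 10 genes ran from 1.77 (Bak1) to 2.57 (Bbc3), beside 2.23 over all genes.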
